A study of Saccharomyces cerevisiae with 6 samples.

Results

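The genes described here encode proteins of the large (60S) subunit of the cytosolic ribosome of the budding yeast Saccharomyces cerevisiae. They were taken by identifier as the 60 genes from RPL1A to RPL35B in number order, of 7127 features in the count table, and no measured value entered that choice. RPL13A, which is altered in the parent strain, and RPL29 were left out by the same rule. The 60 genes form 26 pairs of paralogs, called copies A and B, and 8 genes with no second copy among them. Of those 8, RPL13B is the copy of the omitted RPL13A.

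The samples were 3 wild type and 3 snf2Δ libraries of poly(A)-enriched RNA from the strain HHY221, grown to log phase in the rich medium YPD at 30 °C without rapamycin. Snf2 is the motor subunit of Swi-Snf, which slides and evicts nucleosomes, and the comparison asked which transcripts depend on it. HHY221 is a MATa parent strain of the W303 background for anchor-away. In that method rapamycin pulls a tagged protein out of the nucleus on newly made ribosomal proteins. By the strain table of the study, both genotypes therefore share the rapamycin-resistant TOR1-1 allele, a deletion of FPR1 marked with LEU2, and RPL13A fused to FKBP12, so that 1 large subunit protein carries a tag in wild type and mutant alike. The mutant carries in addition the whole-gene deletion snf2Δ::natMX6. The labels number the samples but do not say that they came from separate cultures, so the p-values refer to the spread among the samples as given, which may be technical.

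A ribosome joins a small subunit, which reads the mRNA, to a large subunit, which forms peptide bonds and lets the new protein leave through a tunnel. Growing yeast devotes a large part of its mRNA to ribosomal proteins. Most of these proteins are encoded by paralogs that were kept after an ancient genome duplication, and the copies are nearly or fully identical in protein sequence. Many of the genes carry an intron, which few other yeast genes do. Their promoters are typically bound by Rap1 with Fhl1 and Ifh1, and Sfp1 and the kinase Sch9 tie their transcription to nutrients through TOR signalling.

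Because copies are so alike, their reads can be told apart only where the sequences differ, and the pairs below show how much there was to go by. Each line gives 60 coding bases of the R64 reference (RefSeq), 5′ to 3′, with the bases that differ between the copies in capitals. The stretch chosen is the first of that length with the most differences. The RPL9 copies differed at 36 of 576 coding bases, the RPL15 copies at 42 of 615, the RPL8 copies at 38 of 771 and the RPL1 copies at only 4 of 654.
RPL9A, coding bases 514 to 573: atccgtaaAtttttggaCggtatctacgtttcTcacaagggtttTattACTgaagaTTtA
RPL9B, coding bases 514 to 573: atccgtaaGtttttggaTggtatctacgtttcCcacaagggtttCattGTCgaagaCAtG
RPL15A, coding bases 555 to 614: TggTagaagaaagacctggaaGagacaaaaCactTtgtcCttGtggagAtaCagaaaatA
RPL15B, coding bases 555 to 614: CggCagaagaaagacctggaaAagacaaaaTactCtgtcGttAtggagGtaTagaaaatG
RPL8A, coding bases 370 to 429: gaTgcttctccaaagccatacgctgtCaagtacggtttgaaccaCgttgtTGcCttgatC
RPL8B, coding bases 370 to 429: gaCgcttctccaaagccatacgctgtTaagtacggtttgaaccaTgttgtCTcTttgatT
RPL1A, coding bases 1 to 60: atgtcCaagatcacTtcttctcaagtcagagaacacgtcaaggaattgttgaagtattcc
RPL1B, coding bases 1 to 60: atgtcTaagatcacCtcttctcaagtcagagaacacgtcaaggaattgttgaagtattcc

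Over the whole coding sequence, 50-base windows found nowhere else in the coding sequences made up 86.0% of RPL9A and of RPL9B, 88.2% of the RPL15 copies and 93.1% of the RPL8 copies. They made up 19.0% of the RPL1 copies, 19.4% of the RPL35 copies, 27.3% of the RPL4 copies, 39.1% of the RPL11 copies and 43.2% of the RPL7 copies. The sources used here do not say how reads that match both copies were counted. Levels of these last 10 genes as single copies are therefore uncertain, and the sum of a pair is the firmer value. Apart from the small nucleolar RNA genes SNR39 and SNR59, which lie in introns of RPL7A and RPL7B, no member overlapped another gene annotated by RefSeq. The count table also held 1080 features absent from that annotation, and whether these overlap members was not tested.

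The libraries held 4134546 to 6708036 counts, and a member had 187 to 26611 counts in a library. Levels are given as CPM, counts scaled to a common library size by TMM, with the SD over the 3 libraries of a genotype. SNF2 itself fell from 64.8 ± 8.92 to 1.70 ± 0.297 CPM, as its label required. The a-cell genes STE2, STE6, BAR1, MFA1 and MFA2 were present in both genotypes at 92.1 to 785 CPM as genotype means. The genotype means of the alpha-cell genes STE3, MF(ALPHA)1 and MF(ALPHA)2 were at or below 2.56 CPM. Of 5641 genes tested with edgeR's quasi-likelihood test, 939 were higher and 1003 lower in snf2Δ at an adjusted p under 0.05.

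Wild type replicate 3 stood apart, and not only in the large subunit genes. The median level of the 60 members there was 0.30 on the log2 scale above the other wild type libraries, and 50 of the 60 were highest there among the wild type libraries. The small subunit genes summed to 76742, 76011 and 99579 CPM in wild type replicates 1 to 3. On the second principal component of the genes tested these libraries lay at 6.90, 10.4 and -19.1. The same library was the deepest of the 6. Counts of called genes and of pairs that do not overlap are therefore also given without it.

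**Figure D1:**
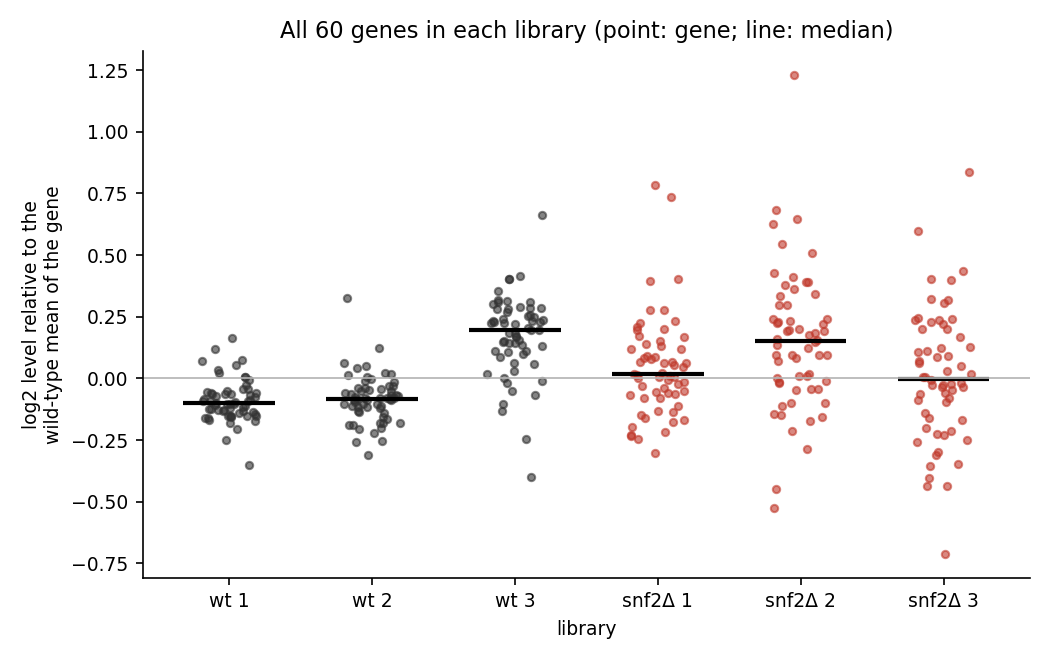
Level of all 60 large subunit genes in each library, on the log2 scale relative to the wild type mean of the same gene, with 1 point per gene and a line at the median. The median was -0.10 in wild type replicate 1, -0.08 in replicate 2 and 0.20 in replicate 3, against 0.02, 0.15 and -0.0013 in the snf2Δ libraries, so the snf2Δ medians lie within the range of the wild type medians.

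As a group the large subunit genes moved little. All 60 were tested, and 4 were higher and 2 lower in snf2Δ (edgeR, adjusted p under 0.05), where the background over all genes tested was 16.6% higher, 17.8% lower and 34.4% either way. The other 54 did not pass, with log2 fold changes of -0.29 to 0.36. An unadjusted p under 0.05 also picked 6 members. The median log2 fold change of the 60 was 0.03, beside -0.02 over all genes tested, and 35 were positive and 25 negative. No member reached a log2 fold change of 2 in size. The SD of the log2 fold changes was 0.238 among the 60 members and 0.755 among all genes tested. These sets differ in abundance, as the median wild type level of the members lay at percentile 97.7 of the genes tested. Of 1837 genes with a mean of at least 100 CPM, 347 were higher and 391 lower.

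Levels did not overlap between the genotypes for 7 members on the higher side and 6 on the lower side. Over all genes tested the corresponding shares were 22.4% and 24.1%, together 46.6%. The members not overlapping but without a call were RPL14B, RPL21B and RPL25 above wild type and RPL9A, RPL17B, RPL19B and RPL31A below it. Without wild type replicate 3, edgeR called 18 members, 16 higher and 2 lower, and the median rose to 0.13. Calls over all genes tested rose too in that fit, to 20.8% higher and 23.1% lower, 43.9% in all. Of the 6 original calls 5 remained in that fit, and RPL7B was lost (log2 fold change -0.31, edgeR adjusted p = 0.0562). With an offset for GC content and gene length the split turned, with 2 higher and 9 lower and a median of -0.12, while 17.2% of all genes tested were higher and 18.6% lower. The median also lay just below 0 without wild type replicate 1, wild type replicate 2 or snf2Δ replicate 2 (-0.02, -0.02 and -0.01), so the 60 genes showed no steady common direction.

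**Figure D2:**
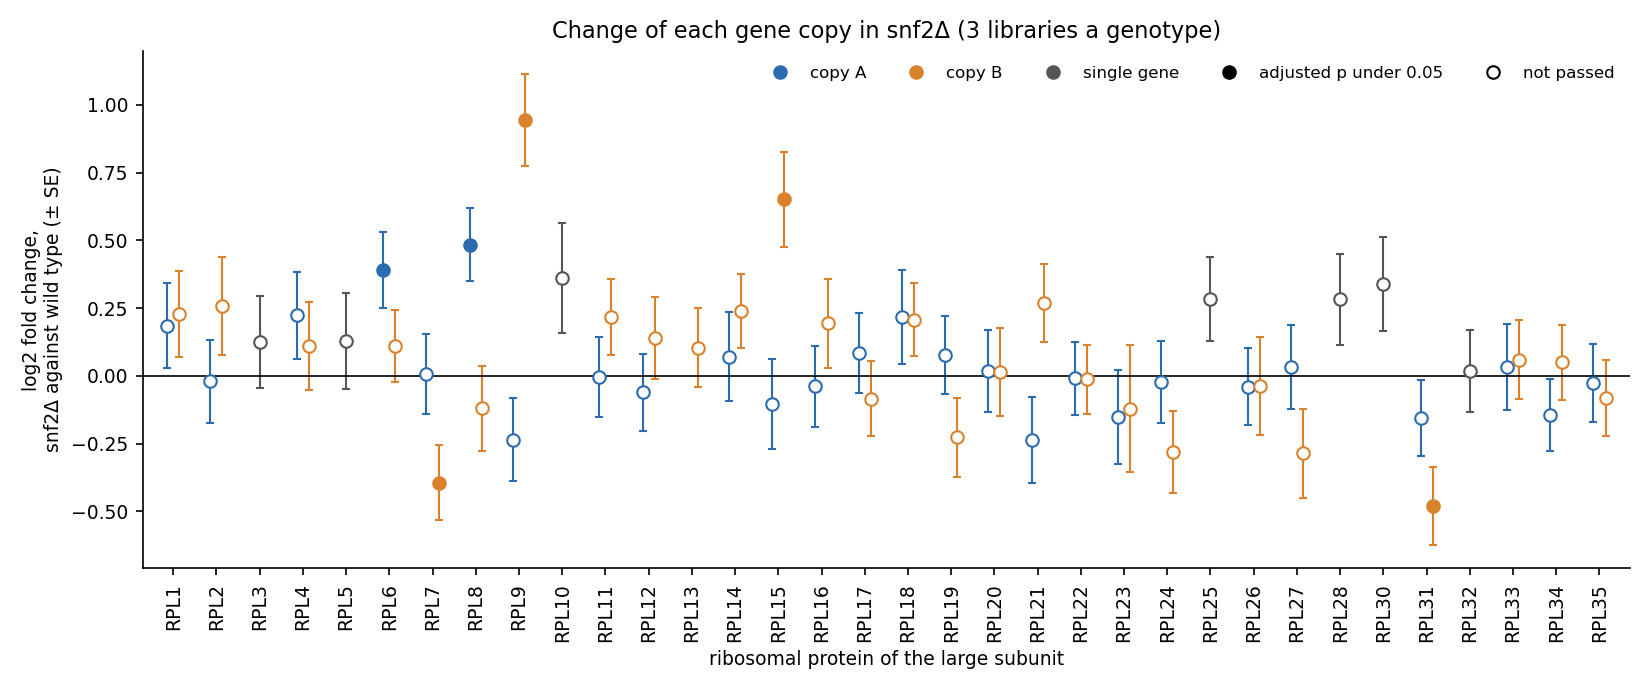
Log2 fold change of each gene copy in snf2Δ against wild type, with its standard error from 3 libraries a genotype, ordered by protein number. The 6 filled points passed at an adjusted p under 0.05 (RPL6A, RPL8A, RPL9B and RPL15B above 0, RPL7B and RPL31B below 0), and the 54 open points lie between -0.29 and 0.36.

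The summed transcript of the group took a similar share of both genotypes. The 60 genes took 7.52%, 7.75% and 8.37% of all counts in wild type, against 8.37%, 8.74% and 7.77% in snf2Δ. The ranges overlapped, and the ratio of the means was 1.05. The small subunit (40S) genes also overlapped, with a ratio of 1.02. The 21 other large subunit genes did not, with 2.26%, 2.25% and 2.43% against 2.55%, 2.62% and 2.46% and a ratio of 1.10. Scaled by TMM, their sums did overlap, at 22085, 21279 and 26160 CPM in wild type against 24272, 26759 and 25610 CPM in snf2Δ. In bulk RNA, a change in the RNA of every cell and a change in the mixture of cells cannot be told apart.

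Of the 6 calls, all were single members of a pair, and their partner did not pass. RPL9B (YNL067W, chromosome XIV, 499681 to 500256, plus strand, no intron) was the clearest. It is 1 of the 2 genes for a protein at the factor-binding side of the large subunit. RPL9B stood at 268, 306 and 395 CPM in wild type and at 549, 749 and 570 CPM in snf2Δ. Every snf2Δ library lay above every wild type library, and the log2 fold change was 0.94 ± 0.17 (SE; edgeR, adjusted p = 0.000500). RPL9A (YGL147C, chromosome VII, 227754 to 228329, minus strand) stood at 1348, 1369 and 1727 CPM in wild type and at 1253, 1329 and 1195 CPM in snf2Δ. Here all snf2Δ libraries lay below the wild type ones, but the log2 fold change of -0.23 ± 0.15 did not pass (edgeR, adjusted p = 0.251).

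The share of RPL9B in the counts of its pair was 16.6%, 18.3% and 18.6% in wild type, against 30.4%, 36.0% and 32.3% in snf2Δ. The mean share thus went from 17.8% ± 1.08 to 32.9% ± 2.85 (SD, n = 3), although RPL9A remained the larger copy in every library. On the log2 scale the A to B ratio moved by -1.18 ± 0.12 (SE), the largest move of the 26 pairs. An exact two-sided permutation test of 3 against 3 libraries gave p = 0.10, which is the smallest it can give. The sum of both copies averaged 1803 ± 279 CPM before and 1883 ± 172 CPM after loss of Snf2. Its log2 fold change of 0.06 ± 0.16 did not pass (edgeR, adjusted p = 0.794).

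Shown upstream of the pair with the largest change are 300 bases, from 400 to 101 bases before the start codon (R64), 5′ to 3′ on the strand of the gene, with matches to the Rap1 core motif in capitals.
RPL9A, chrVII:228430-228729, minus strand: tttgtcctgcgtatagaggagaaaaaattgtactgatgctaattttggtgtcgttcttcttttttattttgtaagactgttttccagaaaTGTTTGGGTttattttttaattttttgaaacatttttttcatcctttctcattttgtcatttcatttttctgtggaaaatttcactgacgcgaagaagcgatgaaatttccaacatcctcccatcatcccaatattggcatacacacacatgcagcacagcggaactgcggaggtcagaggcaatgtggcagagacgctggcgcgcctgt
RPL9B, chrXIV:499281-499580, plus strand: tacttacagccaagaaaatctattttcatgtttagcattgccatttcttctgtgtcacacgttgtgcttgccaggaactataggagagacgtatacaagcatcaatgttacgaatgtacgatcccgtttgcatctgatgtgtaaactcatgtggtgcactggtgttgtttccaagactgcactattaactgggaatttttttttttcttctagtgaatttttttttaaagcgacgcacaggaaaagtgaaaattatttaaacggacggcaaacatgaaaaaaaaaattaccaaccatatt

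The motif searched was ACCCNNNCA on both strands. RPL9A had 1 match, beginning 310 bases before the start codon on the opposite strand, and RPL9B had none of these letters in its window. Over the 500 bases before the start codon, 31 of the 60 members (51.7%) held a match, against 45.6% of the small subunit genes and 13.1% of 6000 coding genes. Of the 6 called members 2 held one, RPL8A and RPL6A. TATAAA, also on both strands, was found in 46.7% of the members and in 60.5% of the coding genes. A run of 10 T on either strand was found in 36.7% of the members and in 23.7% of the coding genes. Rap1 core and TATAAA matches overlapped in 1 member, as did TATAAA and the run of T in 1 member, while Rap1 core matches and runs of T overlapped in none. These matches describe letters only.

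RPL15B (YMR121C, chromosome XIII, 509734 to 510348, minus strand, no intron) was the least abundant of the 60. Its protein lies deep in the ribosomal RNA of the large subunit. It stood at 41.7, 49.6 and 30.0 CPM in wild type and at 65.9, 63.5 and 59.9 CPM in snf2Δ. The groups did not overlap, and the log2 fold change was 0.65 ± 0.18 (SE; edgeR, adjusted p = 0.00935). RPL15A (YLR029C, chromosome XII, 201976 to 202590, minus strand) supplied nearly all of the pair, with 2582, 2602 and 3003 CPM in wild type and 2517, 2907 and 2197 CPM in snf2Δ. Its groups overlapped, and its log2 fold change was -0.10 ± 0.17 (edgeR, adjusted p = 0.661). The share of RPL15B was 1.48% ± 0.451 in wild type and 2.45% ± 0.274 in snf2Δ, a small part of the pair in either genotype. Whether reads of the far more abundant RPL15A were counted as RPL15B was not tested. With the GC and length offset the call was lost (edgeR, adjusted p = 0.0549).

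RPL8A (YHL033C, chromosome VIII, 35255 to 36025, minus strand, no intron) encodes a protein needed early in assembly of the large subunit, and it is the smaller copy of its pair. It stood at 559, 545 and 547 CPM in wild type and at 724, 860 and 725 CPM in snf2Δ. These groups lay far apart compared with the wild type spread, and the log2 fold change was 0.48 ± 0.14 (SE; edgeR, adjusted p = 0.0117). RPL8B (YLL045C, chromosome XII, 47859 to 48629, minus strand) stood at 2205, 2241 and 2729 CPM in wild type and at 2167, 2308 and 2128 CPM in snf2Δ. It overlapped, with a log2 fold change of -0.12 ± 0.16 (edgeR, adjusted p = 0.589). The share of RPL8B was 81.2% ± 1.88 in wild type and 74.1% ± 1.13 in snf2Δ, and the A to B ratio moved by 0.59 ± 0.12 on the log2 scale. The call on RPL8A was lost without snf2Δ replicate 2, its highest library (edgeR, adjusted p = 0.0770).

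RPL6A (YML073C, chromosome XIII, 123227 to 124172, minus strand, with an intron of 415 bases) encodes a protein on the solvent side of the large subunit. It stood at 831, 727 and 676 CPM in wild type and at 981, 941 and 1004 CPM in snf2Δ. Its groups did not overlap, but the call was the weakest of those on the higher side, with a log2 fold change of 0.39 ± 0.14 (SE; edgeR, adjusted p = 0.0413). RPL6B (YLR448W) stood at 719, 651 and 684 CPM in wild type and at 785, 693 and 738 CPM in snf2Δ, with a log2 fold change of 0.11 ± 0.13 (edgeR, adjusted p = 0.558). RPL6A and RPL6B were the most even of these 6 pairs, and the share of RPL6B was 48.0% ± 2.06 in wild type and 43.1% ± 1.19 in snf2Δ. The call on RPL6A was lost in 8 of 18 alternatives, among them those without any 1 library other than wild type replicate 3 (edgeR, adjusted p up to 0.139).

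The lower calls were RPL31B and RPL7B. RPL31B (YLR406C, chromosome XII, 931065 to 931755, minus strand, with an intron of 349 bases) encodes a protein beside the exit of the peptide tunnel. It stood at 694, 705 and 774 CPM in wild type and at 586, 530 and 442 CPM in snf2Δ. All snf2Δ libraries were lower, and the log2 fold change was -0.48 ± 0.14 (SE; edgeR, adjusted p = 0.0172). RPL31A (YDL075W) stood at 1485, 1491 and 1461 CPM in wild type and at 1399, 1340 and 1245 CPM in snf2Δ. It did not overlap either and lay on the same side, but its log2 fold change of -0.16 ± 0.14 did not pass (edgeR, adjusted p = 0.423). The call on RPL31B was lost without snf2Δ replicate 2 or 3 (edgeR, adjusted p up to 0.0814).

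RPL7B (YPL198W, chromosome XVI, 173152 to 174702, plus strand, with 2 introns) was the other lower call. It stood at 307, 340 and 380 CPM in wild type and at 293, 237 and 252 CPM in snf2Δ. The highest snf2Δ library lay just under the lowest wild type library, and the log2 fold change was -0.39 ± 0.14 (SE; edgeR, adjusted p = 0.0389). RPL7A (YGL076C) stood at 1472, 1404 and 1684 CPM in wild type and at 1451, 1524 and 1611 CPM in snf2Δ, with a log2 fold change of 0.01 ± 0.15 (edgeR, adjusted p = 0.972). The call on RPL7B was lost without wild type replicate 2 or 3 and without snf2Δ replicate 2 or 3 (edgeR, adjusted p up to 0.164). The RPL7 copies are among those with few unique windows, and whether reads from the small nucleolar RNA of the intron entered these counts was not tested.

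**Figure D3:**
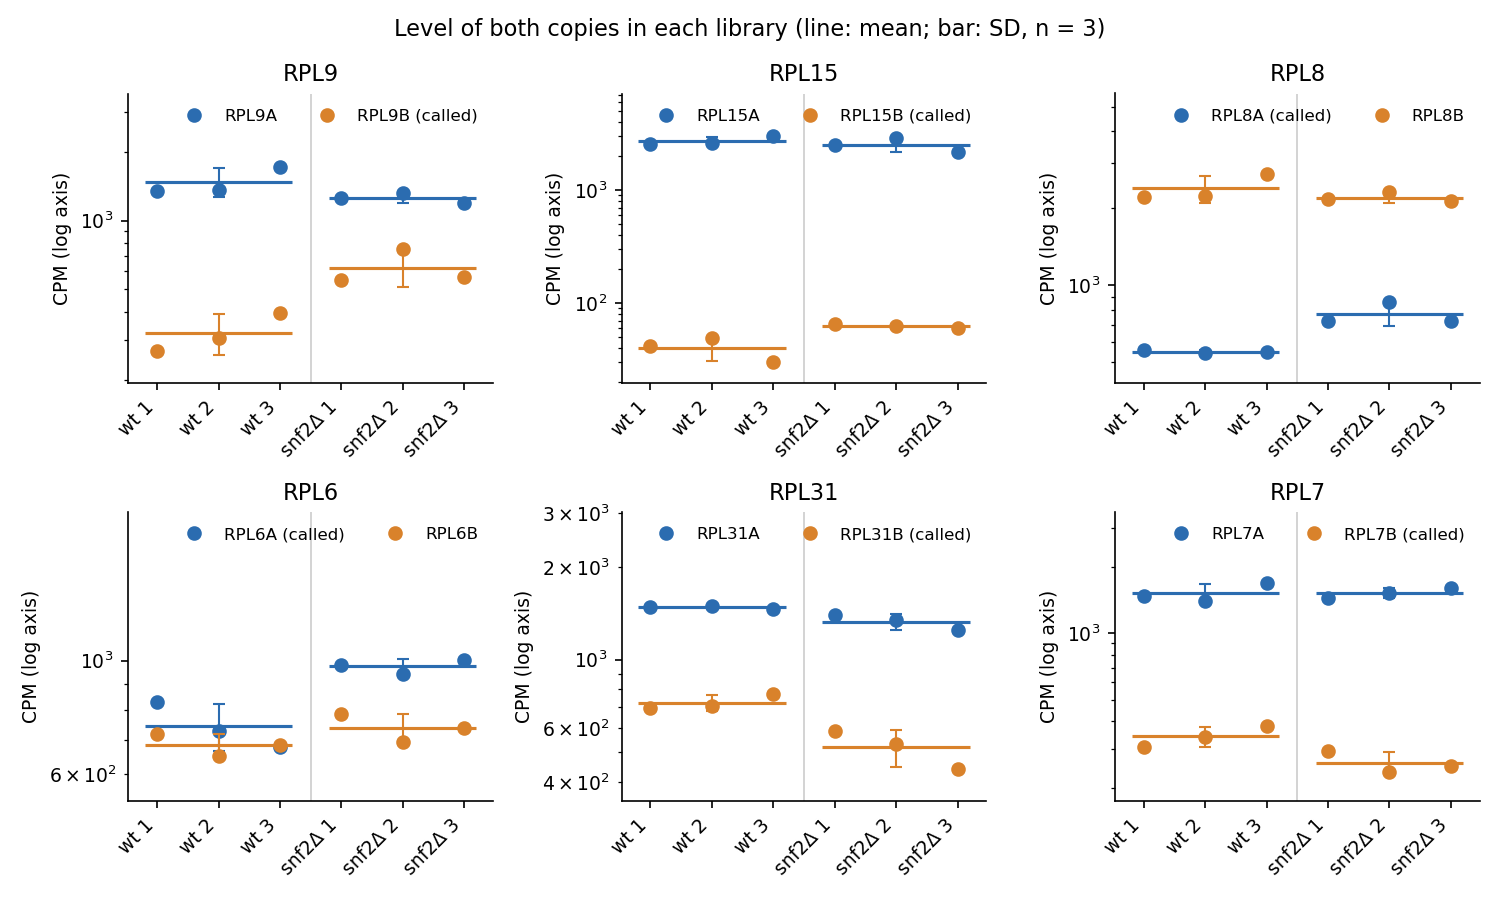
Level in CPM (log axis) of both copies in each library for the 6 pairs with a called member, with the mean as a line and the SD over 3 libraries as a bar. The called copy was the less abundant copy in wild type in every pair but RPL6, and its snf2Δ points do not overlap its wild type points, for example 549 to 749 against 268 to 395 CPM for RPL9B.

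Taking all 26 pairs, the A to B ratio within a library, which does not depend on how libraries are scaled, did not overlap between the genotypes in 14. The share of copy A was higher in snf2Δ in 7 of these and lower in 7. The copies had log2 fold changes of opposite sign in 13 of the 26 pairs. In 25 pairs the same copy was the smaller one in both genotypes. By comparison, the ratio did not overlap in 12 of 24 pairs of the small subunit (50%), so the large subunit pairs were near that background. The counts without wild type replicate 3 were 16 of 26 and 17 of 24. The median size of the difference was 0.21 on the log2 scale in the large subunit pairs and 0.23 in the small subunit pairs, against a typical SD of 0.09 within wild type and 0.10 within snf2Δ. With 3 libraries a genotype no single pair can go below p = 0.10 in the exact permutation test, so none of these ratios passed 0.05.

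The further pairs with the largest moves were RPL21, RPL19 and RPL27, besides RPL7 and RPL31. The copies of RPL21 came close to an even split in snf2Δ. RPL21B (YPL079W) stood at 741, 714 and 880 CPM in wild type and at 906, 1017 and 891 CPM in snf2Δ, while RPL21A (YBR191W) stood at 1105, 1033 and 1434 CPM and at 1005, 1100 and 925 CPM. RPL21B did not overlap and RPL21A did, and neither passed (log2 fold changes of 0.27 ± 0.14 and -0.24 ± 0.16, edgeR adjusted p of 0.160 and 0.265). Its share of the pair was 39.7% ± 1.49 in wild type and 48.2% ± 0.835 in snf2Δ.

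Rpl19 ends in a long helix that reaches over to the small subunit. RPL19A (YBR084C-A) stood at 1366, 1361 and 1226 CPM in wild type and at 1463, 1407 and 1300 CPM in snf2Δ, and RPL19B (YBL027W) at 1777, 1851 and 1692 CPM and at 1570, 1591 and 1386 CPM. Only RPL19B did not overlap, and neither passed (log2 fold changes of 0.08 ± 0.14 and -0.23 ± 0.15, edgeR adjusted p of 0.707 and 0.249). The share of RPL19B was 57.4% ± 0.758 in wild type and 52.1% ± 0.796 in snf2Δ.

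RPL27A (YHR010W) stood at 1123, 1153 and 1444 CPM in wild type and at 1244, 1409 and 1153 CPM in snf2Δ, and RPL27B (YDR471W) at 674, 668 and 969 CPM and at 663, 673 and 561 CPM. Both copies overlapped between genotypes, and neither passed (log2 fold changes of 0.03 ± 0.16 and -0.29 ± 0.16, edgeR adjusted p of 0.894 and 0.193). Their ratio did not overlap, and wild type replicate 3 was the highest library for both copies. The share of RPL27B was 38.1% ± 1.80 in wild type and 33.3% ± 1.31 in snf2Δ.

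At the other end, RPL22A (YLR061W) and RPL22B (YFL034C-A), whose protein is known to act on the splicing of its own RPL22B transcript, kept their ratio to within 0.003 on the log2 scale. The share of RPL22B was 11.5% ± 0.374 in wild type and 11.5% ± 0.578 in snf2Δ. The RPL1, RPL18, RPL20, RPL26, RPL33 and RPL35 pairs also had small ratio differences, of 0.01 to 0.05 in size.

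**Figure D4:**
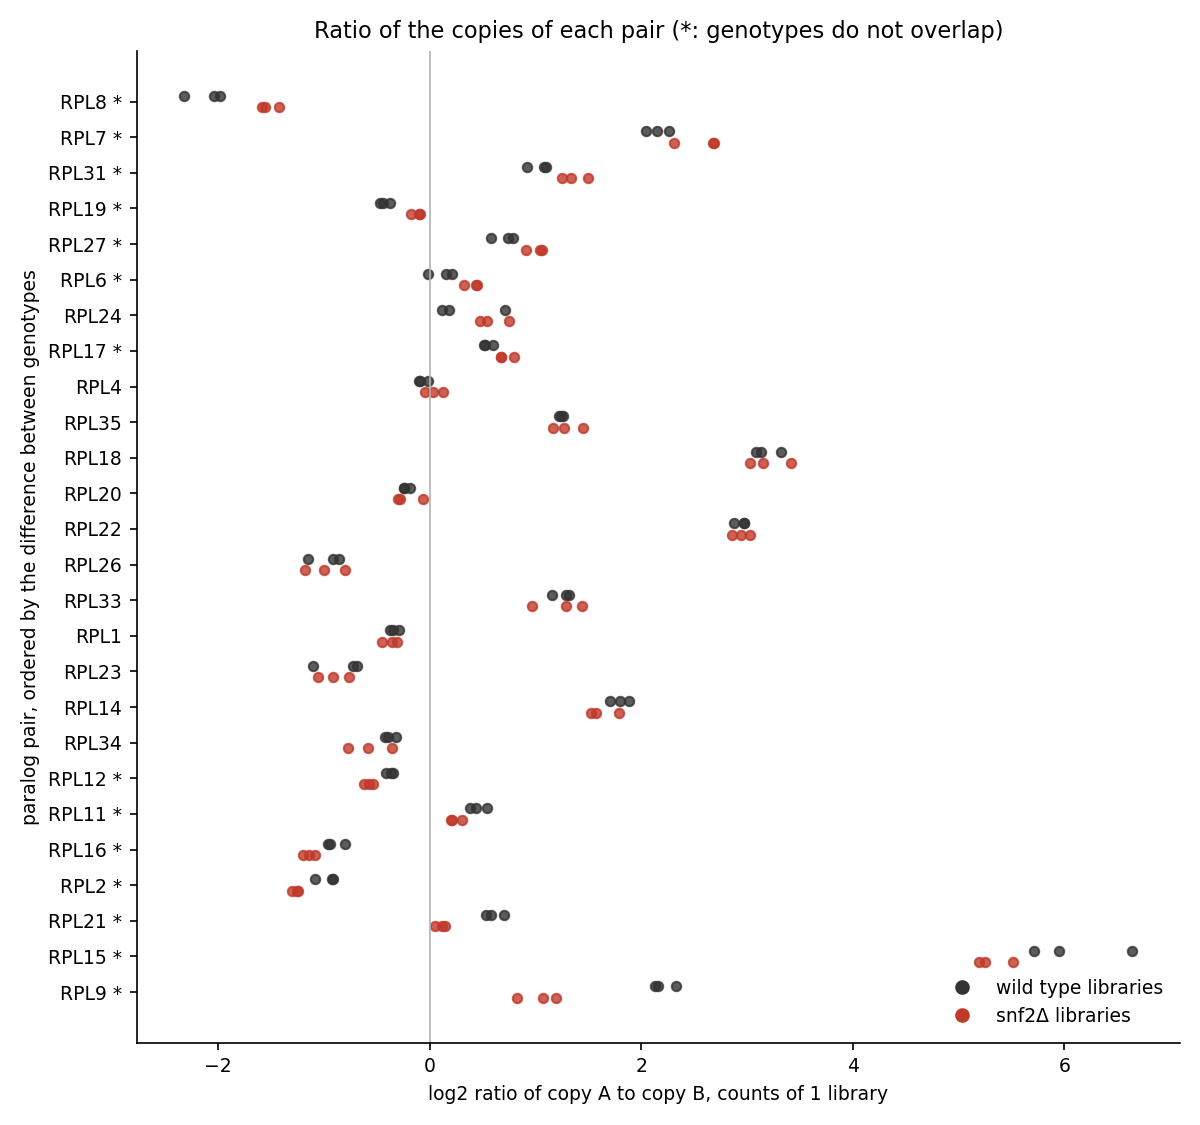
Log2 ratio of copy A to copy B in each library for all 26 pairs, ordered by the difference between the genotypes, with wild type in black and snf2Δ in red. The genotypes do not overlap in the 14 pairs marked with a star. The largest differences are those of RPL9 (-1.18), RPL15 (-0.78) and RPL8 (0.59), and 0 marks equal counts of the copies.

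No protein passed once its copies were summed. In a test over 5582 features in which the copies of ribosomal protein genes were added up, the share of all features called was 16.8% higher, 17.8% lower and 34.6% either way. The 34 large subunit proteins, RPL13 included with its tagged copy, gave 0 calls with edgeR, and 0 had an unadjusted p under 0.05 (DESeq2 called 0, with 4 at an unadjusted p under 0.05, and limma-voom called 0, with 0). The smallest adjusted p was 0.137 (edgeR), that of RPL30. Without wild type replicate 3, 6 of the 34 were higher, namely RPL1, RPL10, RPL18, RPL25, RPL28 and RPL30. In the fit of single genes without that library, 20.8% of all genes tested were higher, and with the offset for GC content and length 18.6% were lower. With that offset, 1 of the 34 was lower, RPL31, whose sum went from 2201 ± 31.5 to 1849 ± 151 CPM.

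The 8 genes without a second copy among the members all had a positive log2 fold change, from 0.02 to 0.36 (7 of 8 without wild type replicate 2 or snf2Δ replicate 2, and 6 of 8 with the GC and length offset), but none passed with edgeR, and 0 had an unadjusted p under 0.05 (DESeq2 and limma-voom also called 0). RPL10 (YLR075W) encodes the protein that is loaded last, in the cytoplasm, close to the catalytic centre. It stood at 2865, 2690 and 4267 CPM in wild type and at 3880, 4944 and 3791 CPM in snf2Δ, with a log2 fold change of 0.36 ± 0.20 (edgeR, adjusted p = 0.182). Wild type replicate 3 lay inside the snf2Δ range and the other wild type libraries below it.

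RPL30 (YGL030W), whose protein binds its own transcript and blocks its splicing, stood at 1435, 1461 and 1891 CPM in wild type and at 1656, 2308 and 2093 CPM in snf2Δ. RPL28 (YGL103W), the gene in which cycloheximide resistance mutations are known, stood at 1683, 1763 and 2203 CPM and at 2108, 2659 and 2102 CPM. In both genes, wild type replicate 3 was the only wild type library within the snf2Δ range. RPL25 (YOL127W), which encodes the docking site for chaperones and the signal recognition particle at the tunnel exit, stood at 1638, 1646 and 1965 CPM and at 2011, 2346 and 2031 CPM, and alone among the 8 did not overlap. The log2 fold changes of RPL30, RPL28 and RPL25 were 0.34 ± 0.17, 0.28 ± 0.17 and 0.28 ± 0.16 (edgeR, adjusted p of 0.143, 0.212 and 0.173). Without wild type replicate 3, RPL10, RPL25, RPL28 and RPL30 were called higher, in a fit where 20.8% of all genes tested were higher.

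RPL3 (YOR063W), which reaches to the peptidyl transferase centre, was the most abundant member in CPM, standing at 4432, 4394 and 4180 CPM in wild type and at 4138, 4948 and 5108 CPM in snf2Δ. RPL5 (YPL131W), which carries the 5S ribosomal RNA, stood at 2989, 2881 and 4054 CPM and at 3465, 3824 and 3562 CPM. RPL13B (YMR142C), the untagged partner of the RPL13A fusion, stood at 1507, 1628 and 1613 CPM and at 1672, 1843 and 1588 CPM. RPL32 (YBL092W) stood at 2111, 2031 and 2315 CPM and at 2126, 2298 and 2110 CPM. All 4 overlapped between genotypes, and their log2 fold changes were 0.13 ± 0.17, 0.13 ± 0.18, 0.10 ± 0.15 and 0.02 ± 0.15. The tagged gene RPL13A itself averaged 221 ± 27.6 CPM in the wild type libraries against 199 ± 42.1 CPM in the mutant ones, with a log2 fold change of -0.15 ± 0.16 that did not pass (edgeR, adjusted p = 0.506).

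Levels per kilobase of coding sequence in wild type ran from 65.8 CPM per kb for RPL15B to 5477 CPM per kb for RPL32, with a median of 2292. On that scale the copies called in snf2Δ stood low in the group, RPL9B ranking 56 of 60, RPL8A 55, RPL7B 57 and RPL15B 60, with RPL6A at 48 and RPL31B at 33. The 40 members with an annotated intron held 1 higher and 2 lower call, and the 20 without held 3 higher and 0 lower. These counts without wild type replicate 3 were 9 higher and 1 lower, and 7 higher and 1 lower. The shares over all genes tested were 16.6% higher and 17.8% lower with all libraries, and 20.8% and 23.1% without that library. In the fit of all 6 libraries the median log2 fold changes of members with and without an intron were 0.02 and 0.13. The 10 members with under 50% unique windows held 0 higher and 1 lower call, RPL7B, or 3 higher and 0 lower without wild type replicate 3.

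Related genes gave a similar picture, beside 16.6% higher and 17.8% lower over all genes tested. Of the 57 small subunit genes, 4 were higher (RPS6B, RPS14B, RPS22B and RPS25A, log2 fold changes of 0.48 to 0.70) and 2 lower (RPS9A, -0.90 ± 0.14, and RPS26B, -0.50 ± 0.15), with a median of 0.04 over the 57. Without wild type replicate 3, 12 were higher and 2 lower with a median of 0.17. With the GC and length offset 3 were higher and 7 lower with a median of -0.10. The shares over all genes tested were 20.8% higher and 23.1% lower without that library, and 17.2% and 18.6% with the offset. Of the 21 other large subunit genes, edgeR called 0, with 2 at an unadjusted p under 0.05, while DESeq2 called 1 higher and 1 lower and limma-voom called 0. Their median log2 fold change was 0.12. Without wild type replicate 3, 5 were higher and 0 lower with a median of 0.26, and with the offset 0 were higher and 2 lower with a median of -0.10.

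Among 12 regulators of ribosomal protein genes, 2 were higher and 3 lower, and the counts without wild type replicate 3 were equal to these. Over all genes tested the shares were 16.6% higher and 17.8% lower, or 20.8% and 23.1% without that library. HMO1, a high-mobility-group protein found at these promoters, stood at 228, 241 and 303 CPM in wild type and at 136, 129 and 144 CPM in snf2Δ, and fell with a log2 fold change of -0.92 ± 0.14 (edgeR, adjusted p = 0.000138). The activator gene SFP1 fell as well (-0.64 ± 0.15, edgeR adjusted p = 0.00395), as did MRS6, whose protein binds Sfp1 (-0.51 ± 0.13, edgeR adjusted p = 0.00616). The coactivator gene IFH1 rose from 37.1 to 56.6 CPM (0.62 ± 0.18, edgeR adjusted p = 0.0145). SCH9 was called higher as well (0.42 ± 0.15, edgeR adjusted p = 0.0456), although its levels overlapped between the genotypes. RAP1 and FHL1 did not pass, with log2 fold changes of -0.21 and -0.11.

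Of 17 genes for factors that escort large subunit proteins or finish the subunit, 1 was higher and 1 lower, against 3 higher and 4 lower without wild type replicate 3. The shares over all genes tested are those given for the regulators. REI1, which acts late in the cytoplasm to free an export factor from the subunit, stood at 67.1, 77.6 and 91.2 CPM in wild type and at 153, 156 and 136 CPM in snf2Δ. Its log2 fold change of 0.91 ± 0.15 was close in size to that of RPL9B (edgeR, adjusted p = 0.000175). BCP1, the escort of Rpl23, stood at 126, 125 and 138 CPM and at 105, 97.4 and 80.5 CPM (-0.46 ± 0.14, edgeR adjusted p = 0.0177). Its client genes RPL23A (YBL087C) and RPL23B (YER117W) did not pass, and the share of RPL23B was 64.1% ± 3.56 in wild type and 65.3% ± 2.24 in snf2Δ.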

How the data were processed

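RNA-seq libraries of 3 wild type and 3 snf2Δ samples of the strain HHY221 were analysed, grouped by the labels. The authors deposited whole-number counts for each feature and library, without normalization or pooling. The submitters' processing notes name sacCer3 as build and RSEM 1.3.0, STAR 2.7.3a and bcl2fastq 2.18 as tools. No source used here states strand or the treatment of reads with several matches, and reads may be split or dropped between near-identical copies. The labels give hot phenol extraction and poly(A) enrichment, but a column kit is named in the methods of the study.

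Of 7127 features, 6047 matched the RefSeq annotation of R64, the sequence of sacCer3, which gave names, positions, introns and sequence. The strain is of the W303 background by the strain table of the study, and its sequence may differ from this reference. Total counts were 4134546 to 6708036 per library, and a count of 0 allows up to 0.447 to 0.726 CPM (3 counts per library, counting error only).

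Genes kept by filterByExpr were tested in R 4.3.3 with edgeR 4.0.16 (TMM, glmQLFit and glmQLFTest, genotype as the only term). Benjamini-Hochberg adjustment ran over 5642 genes with SNF2 among them, and SNF2 was then left out of the counts over 5641 genes. The copies of each ribosomal protein were also summed per library and tested in the same way over all features. The ratio of copies was log2 of counts plus 0.5, compared by an exact two-sided permutation test. Alternatives were other scalings and filters, DESeq2 1.42.0, limma-voom 3.58.1, a replicate block, a loess offset for GC content and length, each library left out and, added after the data were seen, the older quasi-likelihood fit. The fit was tested on simulated data.

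Members with an adjusted p under 0.05, both copies of the 8 pairs with the largest ratio difference (at least 10 CPM each, no overlap), genes without a second copy and called members of the related lists were named. Naming RPL22, RPL23 and members with few unique windows or no overlap was a choice made with the values in view. The members and lists were chosen with earlier results of these data known.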

Additional observations from a re-analysis of the deposited data

How the results depend on the processing

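RPL9B was called in all 18 alternatives, with log2 fold changes of 0.79 to 1.11. RPL15B and RPL8A were called in 17, RPL31B in 16, RPL7B in 13 and RPL6A in 10, and no member with a call changed direction. RPL15B was lost with the GC and length offset (edgeR, adjusted p = 0.0549) and RPL8A without snf2Δ replicate 2 (edgeR, adjusted p = 0.0770). RPL31B was lost without snf2Δ replicate 2 or 3, and RPL7B without either of these, without wild type replicate 2 or 3, and with upper quartile scaling, which left 1 member lower. RPL6A was lost with no filter, with both fits that used the offset, and without each library other than wild type replicate 3. Leaving out 1 library at a time gave 2 to 18 members called, 2 to 16 higher and 0 to 2 lower, and 0 to 6 summed proteins. The fewest were called without snf2Δ replicate 2 (2 called), then without snf2Δ replicate 3 (3), and the most without wild type replicate 3 (18). Calls over all genes tested moved in the same order, at 24.9%, 28.1% and 43.9%, against 34.4% with all libraries. The GC and length offset gave 11 members called, 2 higher and 9 lower, a median of -0.12 and 1 summed protein. It called 35.8% of all genes tested. The cause of these shifts was not tested. The ratio differences of the 26 pairs moved by less than the spread between libraries under each of the 8 alternatives that apply to a ratio. Where an alternative left out 1 library, no other outcome was possible. Dropping 1 of 3 libraries always moves a genotype mean by less than that spread. Whether the ratio differences are steady therefore cannot be judged from this comparison.

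The labels do not say whether the replicate numbers pair the samples. Deviations of same-numbered libraries correlated at 0.15, -0.04 and 0.13, and those of differently numbered libraries at -0.20 to 0.13. With 3 libraries a genotype these values cannot settle whether the samples are paired. With the replicate block, 6 members were called (4 higher, 2 lower) and 0 summed proteins. The replicate block with the GC and length offset gave 13 members, 3 higher and 10 lower, a median of -0.12 and 1 summed protein. Over all genes tested, 36.5% were called with the block alone and 38.9% with the block and the offset. With 3 libraries a genotype, standard errors of members were 0.13 to 0.24 on the log2 scale, and log2 fold changes of up to 0.36 in size did not pass.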
